A study of Mus musculus with 12 samples.

Results

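Glutathione transferases are detoxifying enzymes, and 9 of their genes were followed here in mouse yolk sacs that lack or carry Hypb, now named Setd2: Gsta3, Gsta4, Gstm1, Gstm5, Gstp1, Gstt1, Gsto1, Mgst1 and Mgst3. They were chosen by family, as cytosolic and microsomal transferases, and by measured values, since Gsta3 was already known to be far higher at E10.5 (embryonic day) than at E9.0 on these arrays. All 9 were measured, by 16 probe sets of 45037, and each was represented among 18193 genes by its probe set with the highest mean. The stage difference is part of how these genes came to be selected, so it is described below without a test. The knockout comparisons are tested, but they use the same arrays, so for Gsta3 they are not independent of that selection.

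The groups were Hypb-/- yolk sacs at E9.0, Hypb+/+ yolk sacs at E9.0, Hypb-/- yolk sacs at E10.5 and Hypb+/+ yolk sacs at E10.5, with 3 single-colour Affymetrix arrays each and 12 in all. Every array was hybridised with RNA pooled from 4 yolk sacs of 1 genotype, in a 129Sv/C57BL/6 background for all groups. The submitters chose E9.0 as a stage with little visible phenotype in the knockout and E10.5 as the stage shortly before death. The labels do not say which part of the gene is deleted, how genotypes were assigned within litters, or whether the embryos carried anything else.

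These enzymes join the tripeptide glutathione to reactive, mostly fat-soluble compounds, which makes the products soluble enough to be exported. The cytosolic enzymes fall into classes named by Greek letters, with the class letter in the gene symbol (a for alpha, m for mu, p for pi, t for theta, o for omega), and a separate membrane-bound family holds Mgst1 and Mgst3. Many of their genes are targets of the transcription factor Nrf2, which binds the antioxidant response element. The visceral endoderm of the yolk sac is an absorptive and secretory epithelium that carries out functions later taken over by the liver, an organ rich in alpha and mu class enzymes.

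Promoter windows of 250 bases before to 50 bases after the start were searched on both strands for TGACNNNGC, the core of the antioxidant response element, in RefSeq sequence of GRCm38.p6. Of the 9 genes, 8 had a window in the table and 3 of these held a match, Gsta3, Gstm5 and Mgst1. Over all genes with a window, 14.0% held at least 1 match. The 3 windows with a match are shown, and capitals mark the match, which in Mgst1 lies on the opposite strand.
Gsta3, chr1:21240335-21240634, plus strand: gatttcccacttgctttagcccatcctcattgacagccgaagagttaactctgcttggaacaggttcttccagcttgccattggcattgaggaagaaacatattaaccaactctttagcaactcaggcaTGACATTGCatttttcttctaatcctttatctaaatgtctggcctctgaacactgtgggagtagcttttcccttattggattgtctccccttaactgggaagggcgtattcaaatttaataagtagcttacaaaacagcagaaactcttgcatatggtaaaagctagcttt
Gstm5, chr3:107895604-107895903, plus strand: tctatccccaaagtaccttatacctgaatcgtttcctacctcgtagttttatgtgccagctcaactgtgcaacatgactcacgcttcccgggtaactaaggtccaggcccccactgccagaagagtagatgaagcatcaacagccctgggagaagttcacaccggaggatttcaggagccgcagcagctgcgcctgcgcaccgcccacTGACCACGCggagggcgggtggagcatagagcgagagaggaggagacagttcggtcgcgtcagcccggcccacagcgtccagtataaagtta
Mgst1, chr6:138140277-138140576, plus strand: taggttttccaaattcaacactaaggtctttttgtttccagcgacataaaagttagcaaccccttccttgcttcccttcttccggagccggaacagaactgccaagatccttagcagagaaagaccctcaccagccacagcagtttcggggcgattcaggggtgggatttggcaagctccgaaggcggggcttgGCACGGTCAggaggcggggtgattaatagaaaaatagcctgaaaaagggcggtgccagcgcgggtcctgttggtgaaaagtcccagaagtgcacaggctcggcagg
The matches begin at position -121 in Gsta3, -42 in Gstm5 and -56 in Mgst1, counted from the start of transcription at 0. A second window of Mgst1 and the windows of Gstm1, Gstp1, Gstt1, Gsto1 and Mgst3 held none, and Gsta4 had no window in the table. The window of Gstk1, a further transferase described below, also held none. The Gstt1 window (chr10:75797682-75797981, minus strand) lies inside the gene coordinates given below, which end at 75798584. Sequence before that outer end of Gstt1 was not searched. A match describes these letters and is not evidence of binding, and whether it bears on the knockout differences was not tested.

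The genes lie on 6 chromosomes in GRCm38.p6. Gsta3 (chr1:21240565-21265575) and Mgst3 (chr1:167371966-167393841) are on chromosome 1, Gstm5 (chr3:107895854-107898685) and Gstm1 (chr3:108012250-108017973) on chromosome 3, and Gstp1 (chr19:4035411-4037912) and Gsto1 (chr19:47854973-47864790) on chromosome 19. Mgst1 (chr6:138140527-138156755) and Gstt1 (chr10:75783813-75798584) are on chromosomes 6 and 10. Gsta4 (chr9:78191966-78209349) is on the chromosome of Setd2 (chr9:110532500-110618633), 32.3 Mb away.

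Values are log2 RMA values, so 1 unit is a 2-fold difference, and the number of arrays sets the precision, with a median standard error (SE) of 0.126 for a knockout comparison. Setd2, the labelled target, read 7.53 to 7.99 in the E9.0 knockout against 8.83 to 9.08 in E9.0 wild type (difference -1.29, adjusted p = 0.00207). It read 7.77 to 8.07 in the E10.5 knockout against 8.66 to 8.77 in E10.5 wild type (difference -0.83, adjusted p = 0.00294). Array medians lay between 5.27 and 5.34, and replicate 3 of both genotypes stood apart from replicates 1 and 2 in spiked control signals at each stage. It was treated as a batch inferred from those controls, and results are therefore also given with that batch as a block and within replicates 1 and 2. The visceral endoderm list had 18 of 20 markers measured, with a summed level of 16.84 to 17.17 in log2 over the 12 arrays. That sum leans on the brightest markers, such as Ttr and Afp (means 14.11 and 13.99). The dimmest of the 18, Foxa1, had a mean of 7.27, so each marker lay above the median gene level of 6.52. RMA gives no zeros, so no marker could be at 0.

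Across stages, the alpha class gene Gsta3 had the widest range of the 9. It read 8.01, 8.0 and 8.02 on the knockout arrays at E10.5, against 5.13, 5.35 and 5.16 on the knockout arrays at E9.0. In wild type it read 7.83, 8.48 and 7.86 at E10.5, against 4.18, 4.08 and 4.47 at E9.0. The E10.5 and E9.0 arrays did not overlap in either genotype, and the lowest E10.5 array was far above the highest E9.0 array. The difference E10.5 minus E9.0 was 2.80 (SE 0.16; 6.95-fold) in the knockout and 3.81 (SE 0.16; 14.1-fold) in wild type. By this difference Gsta3 ranked 23 of 18193 genes in the knockout and 7 in wild type. In E9.0 wild type its values lay below the array medians given above. In the E9.0 knockout 5.13 and 5.16 also lay below them, and 5.35 lay just above.

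Gsta3 was read by another probe set, which was dimmer. Its means were 5.69 in the E10.5 knockout and 4.07 in the E9.0 knockout, and 5.47 in E10.5 wild type and 3.80 in E9.0 wild type. The stage difference on this probe set was 1.62 in the knockout and 1.67 in wild type, smaller than on the brighter probe set. Averaging both probe sets gave 2.21 in the knockout and 2.74 in wild type.

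Mgst1, a membrane-bound transferase of the endoplasmic reticulum and mitochondria that also reduces lipid peroxides, followed in size. It read 8.37, 8.22 and 7.71 in the E10.5 knockout, against 7.43, 6.58 and 6.78 in the E9.0 knockout. It read 8.77, 9.0 and 8.39 in E10.5 wild type, against 6.07, 6.27 and 6.00 in E9.0 wild type. The stages did not overlap in either genotype, and the difference was 1.17 in the knockout and 2.61 in wild type (SE 0.23). Its other probe set was near the bottom of the measured range, with group means from 3.17 to 3.34, and showed no such difference (-0.02 in the knockout and 0.12 in wild type). Averaging both gave 0.58 in the knockout and 1.37 in wild type.

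Mgst3, the other membrane-bound member, differed by 0.85 in the knockout and 1.30 in wild type (SE 0.19). The mu class genes Gstm1 and Gstm5 differed by 0.57 and 0.56 in the knockout and by 0.68 and 0.79 in wild type. For these 3 genes the E10.5 arrays lay above the E9.0 arrays in both genotypes. The theta class gene Gstt1, whose enzyme acts on small halogenated compounds, differed by 0.23 in the knockout, where the stages overlapped, and by 0.83 in wild type, where they did not. Gsta4, which conjugates the lipid peroxidation product hydroxynonenal, likewise differed by 0.06 in the knockout, with overlap, and by 0.65 in wild type, without. The pi class gene Gstp1 and the omega class gene Gsto1, a reductase of dehydroascorbate and arsenic compounds, overlapped between stages in both genotypes. Their differences were -0.21 and -0.04 in the knockout and 0.27 and 0.22 in wild type.

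In all, the E10.5 arrays lay above the E9.0 arrays for 5 of the 9 genes in the knockout and 7 of the 9 in wild type, where 34.6% and 40% of all genes did not overlap in either direction. A difference of at least 2-fold upward was seen for 2 of the 9 in the knockout and 3 of the 9 in wild type, against 2.84% and 2.58% of all genes (3.65% and 3.61% in either direction). Since stage chose Gsta3, nothing is read from these counts.

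**Figure D1:**
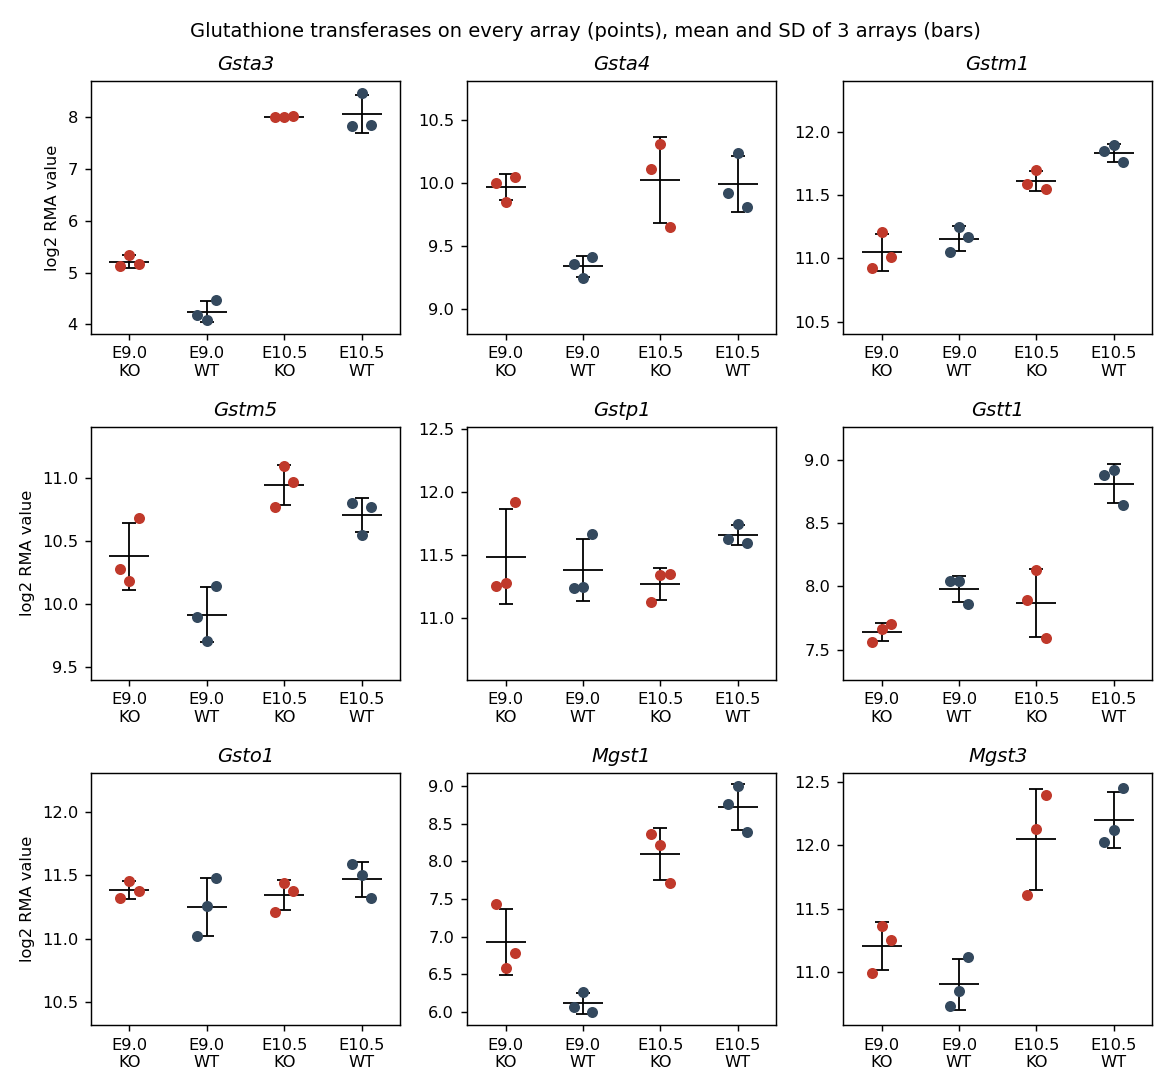
Log2 RMA value (vertical axis) of each gene on each array, in the E9.0 knockout, E9.0 wild type, E10.5 knockout and E10.5 wild type, with 1 panel and 1 vertical scale per gene. Points are arrays and bars are the mean and SD of 3 arrays. Gsta3 lies near 8 in both E10.5 groups and is higher in the E9.0 knockout (5.13 to 5.35) than in E9.0 wild type (4.08 to 4.47), while Gstt1 in the E10.5 knockout (7.59 to 8.13) lies below E10.5 wild type (8.64 to 8.92).

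**Figure D2:**
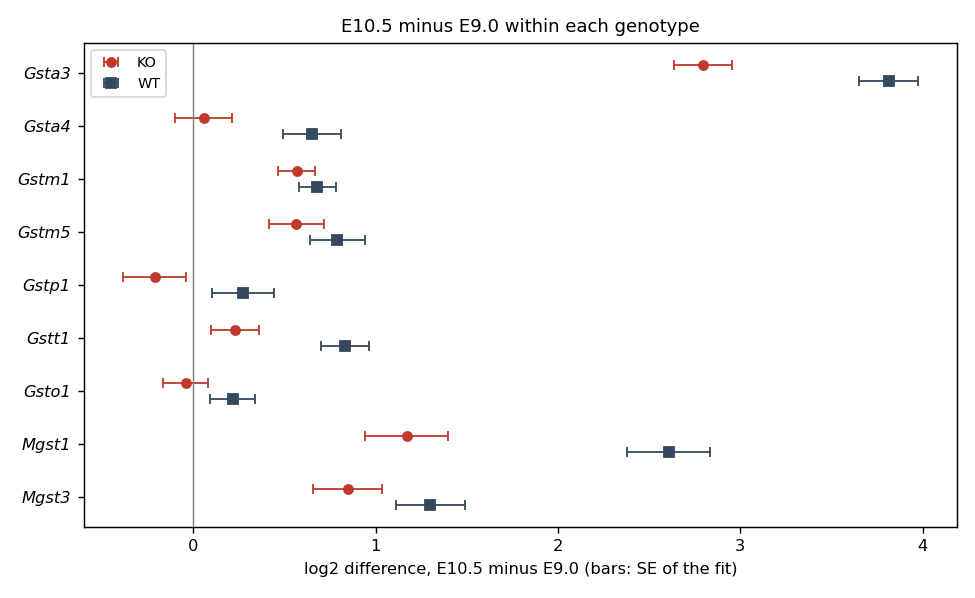
Log2 difference E10.5 minus E9.0 (horizontal axis) of the 9 genes in the knockout (circles) and wild type (squares), with bars for the SE of the fit. Gsta3 is farthest from 0 with 2.80 in the knockout and 3.81 in wild type, and Gstp1 and Gsto1 lie closest to 0 in wild type with 0.27 and 0.22.

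At E9.0, Gsta3 was the 1 gene of the 9 that passed the test between genotypes. It read 5.13, 5.35 and 5.16 on the knockout arrays, against 4.18, 4.08 and 4.47 on the wild type arrays. These readings are dim, near or below the array medians of 5.27 to 5.34. Every knockout array was above every wild type array, and Gsta3 rose by 0.97 (SE 0.16; 1.96-fold; adjusted p = 0.0189, limma over 18193 genes). The difference was 0.69 in replicate 3 and 1.11 within replicates 1 and 2, where the call was lost (adjusted p = 0.0581). Leaving out 1 array ended the call for replicate 1 (1.01, adjusted p = 0.0663) and replicate 3 (1.00, adjusted p = 0.0529) of the knockout. It did so too for replicate 1 (0.94, adjusted p = 0.0666) and replicate 2 (0.89, adjusted p = 0.0857) of wild type. The dimmer Gsta3 probe set gave 0.27 (adjusted p = 0.712 over 45037 probe sets), and the mean of both gave 0.62 (adjusted p = 0.0587). The E9.0 arrays also enter the stage difference by which Gsta3 was known, so its test here is not independent of the selection. A different number of cells of a type and a different amount of RNA per cell cannot be told apart in such pools.

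The other alpha class member pointed the same way. Gsta4 read 10, 9.85 and 10.05 in the E9.0 knockout, against 9.36, 9.25 and 9.41 in E9.0 wild type. Its arrays did not overlap, and the difference of 0.63 (SE 0.16; 1.54-fold) missed the threshold (adjusted p = 0.0820). It was 0.64 in replicate 3 and passed with the batch as a block (adjusted p = 0.0197). Mgst1 read 7.43, 6.58 and 6.78 in the E9.0 knockout, against 6.07, 6.27 and 6.00 in wild type. The genotypes did not overlap either, and the difference of 0.82 (SE 0.23; 1.76-fold; adjusted p = 0.116) passed only with the batch as a block (adjusted p = 0.0408). Its spread over the knockout arrays (SD 0.44) was the widest of any member in that group.

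Gstm5 read 10.28, 10.18 and 10.68 in the E9.0 knockout, against 9.90, 9.71 and 10.14 in wild type, without overlap, and differed by 0.46 (SE 0.15; adjusted p = 0.186). Gstt1 was the 1 gene whose knockout arrays all lay below wild type, with 7.56, 7.66 and 7.70 in the knockout against 8.04, 8.04 and 7.86 in wild type, a difference of -0.34 (SE 0.13; adjusted p = 0.301). The remaining 4 overlapped between genotypes: Gstm1 differed by -0.11, Gstp1 by 0.10, Gsto1 by 0.13 and Mgst3 by 0.30, with adjusted p from 0.609 to 0.907. For Gstp1 replicate 3 was high in both genotypes, at 11.92 in the knockout and 11.67 in wild type, against 11.24 to 11.28 on the other E9.0 arrays.

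Over the 9 genes at E9.0, 1 rose and 0 fell, where 1.18% of all genes were called, 0.55% higher and 0.632% lower. The median difference was 0.30, against -0.01 over all genes. Arrays did not overlap for 5 of the 9, 4 higher and 1 lower, where 18% of all genes did not overlap, 8.56% higher and 9.42% lower. The summed log2 level of the visceral endoderm list was 16.84 to 16.99 in the knockout and 16.91 to 16.98 in wild type, and 0 of its 18 measured markers passed in limma's fit at E9.0 (2 had an unadjusted p under 0.05). Of 10 myeloid markers 2 rose at E9.0, Fcer1g by 1.29 (adjusted p = 0.00217) and Cd68 by 0.65 (adjusted p = 0.0189), and 1 fell, Tyrobp, at -0.61 (adjusted p = 0.0451). The summed level of the myeloid list was 9.67 to 9.85 in the knockout and 9.65 to 9.75 in wild type. That sum includes Fcgr3, the brightest in wild type, with means of 7.42 in the knockout and 8.29 in wild type. The part of myeloid cells in the transferase differences was not tested.

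At E10.5 the 1 gene of the 9 that passed was Gstt1, which fell. It read 7.89, 8.13 and 7.59 on the knockout arrays, against 8.88, 8.92 and 8.64 on the wild type arrays. The genotypes did not overlap, and the difference was -0.94 (SE 0.13; 1.92-fold lower; adjusted p = 0.00111). It was -1.05 in replicate 3 and -0.89 within replicates 1 and 2. The call held under each of the 16 alternatives run, with differences from -1.07 to -0.80 and adjusted p up to 0.0156. By group, Gstt1 was highest in E10.5 wild type, followed by E9.0 wild type (7.98 ± 0.10), the E10.5 knockout (7.87 ± 0.27) and the E9.0 knockout (7.64 ± 0.07; SD, n = 3). The E9.0 knockout arrays all lay below the E9.0 wild type arrays.

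Mgst1 was lower on every E10.5 knockout array, with 8.37, 8.22 and 7.71 against 8.77, 9.0 and 8.39 in wild type. The difference of -0.62 (SE 0.23; adjusted p = 0.134) passed only with the batch as a block (adjusted p = 0.0490). Gstp1 was also lower without overlap, with 11.13, 11.34 and 11.35 in the knockout against 11.63, 11.75 and 11.60 in wild type. Its difference of -0.39 (SE 0.17; adjusted p = 0.225) passed with the batch as a block (adjusted p = 0.0233) and within replicates 1 and 2 (-0.46; adjusted p = 0.0374). Gstm1 was the fourth gene without overlap, with 11.59, 11.70 and 11.55 in the knockout against 11.85, 11.90 and 11.76 in wild type, a difference of -0.22 (SE 0.10; adjusted p = 0.235). Its 3 other probe sets gave -0.32, -0.32 and -0.43, with adjusted p from 0.130 to 0.193 over 45037 probe sets.

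Gsta3, higher in the E9.0 knockout, differed by -0.05 (SE 0.16; adjusted p = 0.919) at E10.5. Its knockout arrays read 8.01, 8.0 and 8.02, between the lowest and the highest wild type array (7.83 and 8.48). Gsta4 differed by 0.03, Gstm5 by 0.24, Gsto1 by -0.13 and Mgst3 by -0.15, with adjusted p from 0.435 to 0.939 and overlapping arrays. A second Gsto1 probe set gave -0.39 (adjusted p = 0.134). A second, dim Mgst3 probe set gave -0.30 (adjusted p = 0.545).

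Over the 9 genes at E10.5, 0 rose and 1 fell, where 7.28% of all genes were called, 4.12% higher and 3.16% lower. The median difference was -0.15, against -0.01 over all genes. Arrays did not overlap for 4 of the 9, all lower in the knockout, where 22.8% of all genes did not overlap, 11.3% lower and 11.5% higher. The summed level of the visceral endoderm list moved with them, at 16.89 to 17.01 in the knockout and 17.09 to 17.17 in wild type, with 12 of 18 markers lower without overlap. Of those 18, 1 rose and 2 fell. The primitive erythroid list did so too, at 15.58 to 15.84 in the knockout and 15.88 to 15.90 in wild type, with 2 of 11 falling. Summed levels ran the other way for the list of heart and neural markers of the embryo proper (9.92 to 11.41 in the knockout and 8.67 to 8.93 in wild type; 3 of 9 rose). They did so for endothelium (11.51 to 11.81 in the knockout and 11.07 to 11.44 in wild type; 3 of 12 rose) and parietal endoderm (13.72 to 13.92 in the knockout and 13.22 to 13.46 in wild type; 8 of 9 higher without overlap, 0 called by limma and 0 with an unadjusted p under 0.05). Of 13 markers of mesothelium, mesenchyme and smooth muscle 4 rose (Acta2, Tagln, Vim and Msx2), with a summed level of 15.16 to 15.63 in the knockout and 15.02 to 15.24 in wild type. The part of these cell types in the transferase differences was not tested.

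**Figure D3:**
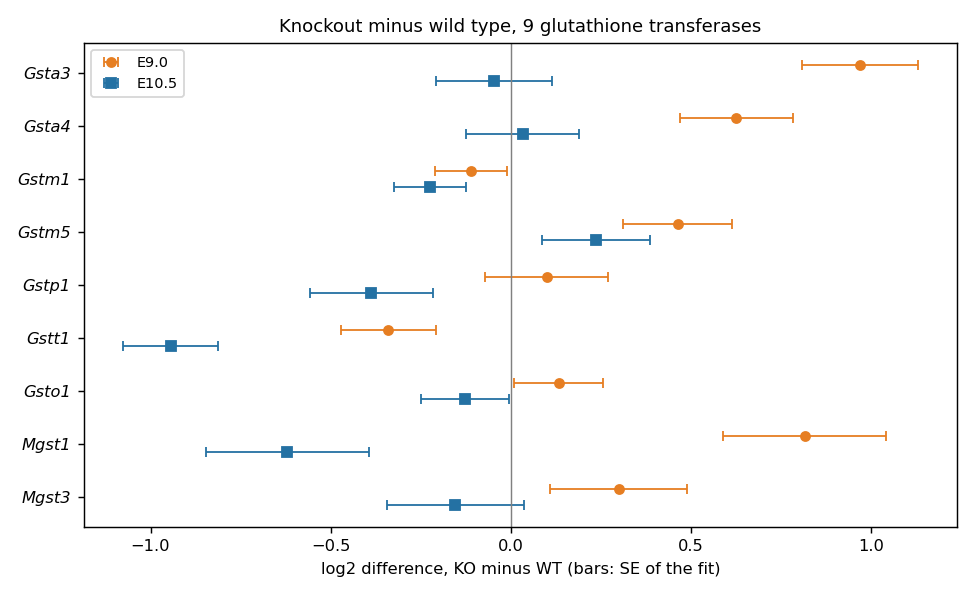
Log2 difference knockout minus wild type (horizontal axis) of the 9 genes at E9.0 (circles) and E10.5 (squares), with bars for the SE of the fit. For all 9 genes the E10.5 value lies to the left of the E9.0 value, with 0.97 at E9.0 and -0.05 at E10.5 for Gsta3 and 0.82 at E9.0 and -0.62 at E10.5 for Mgst1, and Gstt1 is lowest at E10.5 with -0.94.

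The knockout effect at E10.5 was lower than at E9.0 for all 9 genes, as it was for 50.2% of all genes. None of the 9 differences passed the test in limma (0.187% of all genes did, 0.0824% downward). The largest was -1.44 for Mgst1 (SE 0.32; adjusted p = 0.113), followed by -1.02 for Gsta3 (SE 0.23; adjusted p = 0.113), -0.60 for Gstt1 and -0.59 for Gsta4. Before adjustment 4 of the 9 had p under 0.05 (Gsta3, Mgst1, Gstt1 and Gsta4), as did 8.3% of all genes. Mgst1 passed with the batch as a block (adjusted p = 0.0426). The 9 values share the same 12 arrays, so they are not independent of each other. Each equals the stage difference in the knockout minus that in wild type, and the stage difference is part of how these genes were selected. The tests and counts of this difference are therefore not independent of the selection, and nothing is read from the counts.

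Over the 12 arrays the genes differed in how closely they followed each other. Gsta3 correlated with Mgst1, Mgst3, Gstm1 and Gstm5 at Pearson r of 0.94, 0.93, 0.90 and 0.86, but with Gstp1 at 0.12. Gstt1 correlated most with Gstm1 (0.77) and little with Gstm5 (0.21) and Gsta4 (0.23). Gstp1 and Gsto1 correlated with each other at 0.55. The arrays share pools and stages across all genes, so these correlations are a description. The genes whose pattern was most like Gsta3 were Glyat (0.992), which joins glycine to acyl groups in the liver, Kng1 (0.989), the kininogen gene, Fgg (0.989), the fibrinogen gamma chain, Rabac1 (0.987) and Spp2 (0.986). Kng1 differed between stages by 3.53 in the knockout and 4.38 in wild type, and between knockout and wild type at E9.0 by 1.31. At E9.0 Glyat, Fgg, Rabac1 and Spp2 differed by 0.71, 0.19, 0.26 and 0.31. These genes were chosen by likeness to Gsta3 over the same arrays, so similar differences follow from the choice and are no separate evidence. The gene most like Gstt1 was Commd6 (0.984), and the gene most like Mgst3 was Cdo1 (0.986), the cysteine dioxygenase that competes with glutathione synthesis for cysteine. The nearest were Pycrl (0.985) for Gstm1, Sesn1 (0.970) for Gstm5, Pdhb (0.965) for Mgst1, Tut7 (0.924) for Gsta4, Plekhm2 (0.898) for Gstp1 and Cd160 (0.884) for Gsto1.

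Of 22 other measured transferases and relatives, 0 were called at E9.0 by limma (5 had an unadjusted p under 0.05, as did 11.8% of all genes), and at E10.5 2 rose and 4 fell, against 7.28% of all genes called in either direction. The largest rise was in Gstk1, the kappa class enzyme of mitochondria and peroxisomes. It read 8.34, 8.11 and 7.89 in the E10.5 knockout, against 6.90, 6.60 and 6.63 in E10.5 wild type, and rose by 1.40 (SE 0.12; 2.65-fold; adjusted p = 5.04e-05). Its E9.0 knockout arrays (7.04, 7.07 and 7.13) also lay above the wild type arrays (6.67, 6.54 and 6.71), a difference of 0.44 (adjusted p = 0.116). The difference between stages, 0.96, missed the threshold (adjusted p = 0.0506). Gstk1 kept its E10.5 call without any 1 array of that stage.

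Theta class genes lie beside each other on chromosome 10. All 4 measured members were below 0 at E10.5, as were 9566 of all 18193 genes. Gstt3 (chr10:75774117-75781422), the neighbour of Gstt1, read 7.48, 7.74 and 7.49 in the E10.5 knockout against 8.17, 8.29 and 8.25 in wild type and fell by 0.67 (SE 0.11; adjusted p = 0.00412). Gstt2 (chr10:75831842-75837419) read 9.41, 9.59 and 9.28 in the knockout against 9.98, 10.40 and 9.64 in wild type, without overlap, and differed by -0.58 (SE 0.20; adjusted p = 0.102). Gstt4 differed by -0.14 at a level of 3.64, near the bottom of the measured range. Whether probes of related theta genes bind each other's transcripts was not tested.

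Alpha class genes were above 0 at E9.0 in all 3 measured cases, where 9362 of all 18193 genes were below 0. Besides Gsta3 and Gsta4, Gsta2 read 9.26, 8.94 and 8.41 in the E9.0 knockout against 7.69, 7.88 and 8.22 in wild type, a difference of 0.94 (SE 0.24; adjusted p = 0.0820). It differed by 0.48 (adjusted p = 0.285) at E10.5. Gsta2 (chr9:78331018-78347192) neighbours Gsta4 and is close in sequence to Gsta1, so its signal cannot be assigned to 1 of these paralogs with certainty.

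The mu class was split. Of 7 measured genes 3 were above and 4 below 0 at E10.5, and 1 passed: Gstm4 read 8.63, 8.63 and 8.98 in the knockout against 9.26, 9.51 and 9.46 in wild type and fell by 0.66 (SE 0.14; adjusted p = 0.0137). Leaving out replicate 1 of the knockout (-0.61, adjusted p = 0.0608) or replicate 2 of wild type (-0.61, adjusted p = 0.0630) ended the call. Gstm3 differed by -0.56 at E9.0 (adjusted p = 0.0834) and -0.39 at E10.5 (adjusted p = 0.131). Mu genes are near copies of each other, and 3 of the Gstm1 and Gsto1 probe sets are of the kind whose probes match more than 1 sequence.

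Among the membrane-bound relatives, Mgst2 read 8.60, 9.28 and 8.52 in the E10.5 knockout against 9.81, 9.94 and 9.33 in wild type and fell by 0.89 (SE 0.21; adjusted p = 0.0226). Leaving out replicate 1 (-0.79, adjusted p = 0.0941) or 3 (-0.75, adjusted p = 0.0599) of the knockout ended the call. Leaving out replicate 1 (-0.84, adjusted p = 0.0844) or 2 (-0.77, adjusted p = 0.103) of wild type also did. Alox5ap, which presents arachidonate to 5-lipoxygenase, read 8.41, 8.24 and 7.64 in the knockout against 7.28, 7.13 and 7.09 in wild type and rose by 0.93 (SE 0.17; adjusted p = 0.00665). Hpgds, the sigma class enzyme that makes prostaglandin D2, read 5.11, 5.03 and 5.09 in the knockout against 6.03, 6.69 and 6.54 in wild type and fell by 1.34 (SE 0.18; adjusted p = 0.000936). Both are also expressed by blood cells, and Hpgds is dim, with a mean over the 12 arrays of 5.11. Of 10 myeloid markers 5 rose and 1 fell at E10.5, where 4.12% of all genes rose and 3.16% fell. Their summed level was 11.15 to 11.34 in the knockout and 11.25 to 11.47 in wild type. That sum leans on the 1 that fell, Fcgr3, the brightest in wild type (mean 10.54, against 8.72 in the knockout). The sum therefore does not show the direction of the other markers, and the part of these cells was not tested. The 3 brightest of the 22, Clic4, Clic1 and Gstz1, differed at E10.5 by 0.33, -0.10 and -0.20, with adjusted p from 0.121 to 0.786.

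**Figure D4:**
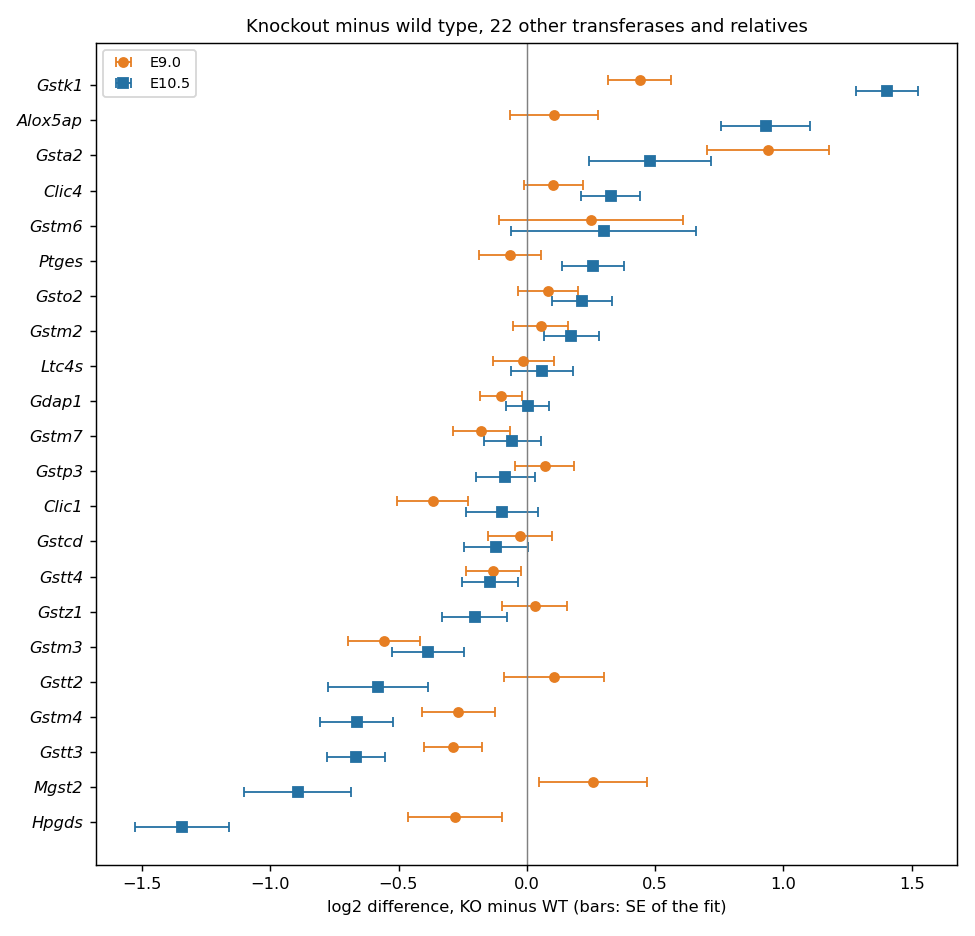
Log2 difference knockout minus wild type (horizontal axis) of 22 other transferases and relatives at E9.0 (circles) and E10.5 (squares), ordered by the E10.5 value, with bars for the SE of the fit. Gstk1 (1.40) and Alox5ap (0.93) lie farthest right at E10.5, and Hpgds (-1.34) and Mgst2 (-0.89) farthest left.

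Of 13 genes of glutathione synthesis and precursor uptake 0 were called at E9.0 by limma (2 had an unadjusted p under 0.05). At E10.5 2 rose and 1 fell, where 4.12% of all genes rose and 3.16% fell, with list medians of 0.01 and -0.0033. Chac1, which degrades glutathione and responds to amino acid stress, rose by 1.12 (SE 0.14; adjusted p = 0.0006), while Chac2, a related enzyme, fell by 0.78 (SE 0.13; adjusted p = 0.00405). Chac1 is dim, with a mean over the 12 arrays of 5.20, against a median gene level of 6.52. Gclc, the catalytic subunit of the first step of synthesis, rose by 0.80 (SE 0.20; adjusted p = 0.0333). Leaving out replicate 1 (0.65, adjusted p = 0.138) or 2 (0.68, adjusted p = 0.103) of the knockout ended that call, as did replicate 1 (0.84, adjusted p = 0.0751) or 3 (0.62, adjusted p = 0.122) of wild type. Of 23 glutathione peroxidases, reductases and thioredoxin genes 0 were called at E9.0 by limma (5 had an unadjusted p under 0.05). At E10.5 1 fell, against 3.16% of all genes, the mitochondrial superoxide dismutase gene Sod2, at -0.46 (SE 0.10; adjusted p = 0.0174). Sod2 lost its call within replicates 1 and 2 (-0.36, adjusted p = 0.0923). It also did so when knockout replicate 1 (-0.44, adjusted p = 0.0633) was left out, or 1 of the 3 wild type arrays (-0.47 to -0.45, adjusted p from 0.0558 to 0.0571).

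Of 28 measured genes of the Nrf2 pathway 2 rose and 0 fell at E9.0, and 4 rose and 0 fell at E10.5, where 0.55% and 4.12% of all genes rose, with list medians of 0.10 and 0.11. Me1, the malic enzyme that makes NADPH, rose by 0.97 at E9.0 (SE 0.13; adjusted p = 0.00538) and by 0.59 at E10.5 (adjusted p = 0.0184). It lost the E9.0 call within replicates 1 and 2 (0.96, adjusted p = 0.0581). It lost the E10.5 call there (0.55, adjusted p = 0.0815) and when replicate 1 of the knockout (0.51, adjusted p = 0.0804) or of wild type (0.49, adjusted p = 0.0843) was left out. The carbonyl reductase gene Cbr3 rose by 0.77 at both stages (adjusted p = 0.0312 at E9.0 and adjusted p = 0.0086 at E10.5). Its E9.0 call was lost within replicates 1 and 2 (0.90, adjusted p = 0.0643). It was lost without any 1 of the 6 E9.0 arrays too, with differences from 0.63 to 0.85 and adjusted p from 0.0551 to 0.132. The epoxide hydrolase gene Ephx1 rose by 0.79 at E10.5 (SE 0.11; adjusted p = 0.000909), and Gclc is also on this list. Cbr3 and Ephx1 are dim, with means over the 12 arrays of 4.89 and 4.39, against a median gene level of 6.52.

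After conjugation, products are exported and trimmed to mercapturates. Of 14 measured genes of these steps 1 fell at E9.0 and 2 fell at E10.5, where 0.632% and 3.16% of all genes fell, and 0 rose. Nat8, the acetyltransferase of the last step, fell by 0.66 at E9.0 (SE 0.12; adjusted p = 0.0225) and by 0.77 at E10.5 (adjusted p = 0.00187). Its E9.0 call was lost within replicates 1 and 2 (-0.54, adjusted p = 0.0831), without knockout replicates 1 (-0.68, adjusted p = 0.0938) or 3 (-0.58, adjusted p = 0.0753) and without wild type replicates 2 (-0.63, adjusted p = 0.107) or 3 (-0.61, adjusted p = 0.0599). Ggt6, of the gamma-glutamyltransferase family, fell by 0.91 at E10.5 (SE 0.12; adjusted p = 0.000843).

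Of 32 other genes of xenobiotic and aldehyde metabolism 1 fell at E9.0, and 2 rose and 3 fell at E10.5, where 1.18% and 7.28% of all genes were called, with list medians of -0.05 and 0.02. The alcohol dehydrogenase gene Adh1 fell by 1.29 at E9.0 (adjusted p = 0.0291) and differed by -2.09 at E10.5, where it also fell (adjusted p = 0.000435). Its E9.0 call was lost within replicates 1 and 2 (-0.98, adjusted p = 0.190) and on leaving out knockout replicate 1 (-1.16, adjusted p = 0.156) or 3 (-1.06, adjusted p = 0.0917). It was also lost on leaving out wild type replicate 1 (-1.34, adjusted p = 0.0855), 2 (-1.32, adjusted p = 0.107) or 3 (-1.21, adjusted p = 0.0830). The sulfotransferase gene Sult1d1 (-1.17, adjusted p = 0.0375) and the glucuronosyltransferase gene Ugt2b5 (-0.91, adjusted p = 0.00927) fell at E10.5, and Cyp1b1 (0.86, adjusted p = 0.0492) rose beside Ephx1. Sult1d1 lost its call without knockout replicates 1 (-1.18) or 3 (-1.01) or any wild type replicate (-1.24, -1.04 and -1.24). Cyp1b1 lost it within replicates 1 and 2 (0.84) and without knockout replicates 1 (0.61) or 3 (0.77) or any wild type replicate (0.72, 0.92 and 0.93). Ugt2b5 lost it within replicates 1 and 2 (-0.76, adjusted p = 0.0822). Sult1d1, Cyp1b1 and Ugt2b5 are dim, with means over all arrays of 5.34, 4.45 and 3.34.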

How the data were processed

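Total RNA from pools of 4 yolk sacs was measured on 12 Affymetrix arrays in 4 groups of 3, taken from the sample titles with their replicate numbers. The deposited table holds log2 values, and RMA is named in the submitters' processing notes, with its version not given in the sources used here. RMA corrects background, brings arrays to 1 distribution and summarises probes, which removes changes shared by all transcripts. The table held 45101 probe sets, of which 64 controls were left out and 34945 carried 1 gene symbol in the platform annotation. Each gene took its probe set with the highest mean, giving 18193 genes.

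One mean per group was fitted with limma 3.58.1 in R 4.3.3 (8 residual and 4.56 prior degrees of freedom), with two-sided tests and Benjamini-Hochberg adjustment over all genes at 0.05. The fit was tested on simulated data. The submitters call the arrays biological repeats but do not give litters, so p-values measure only the spread between these pools. Replicate 3 was treated as a batch because, in the control probe sets, BioC minus BioB was -0.11 in the knockout and 0.0067 in wild type at E9.0, against 1.44 to 1.50 on the other E9.0 arrays, and for the dap transcript the 3' probe set exceeded the 5' one by 1.76 in the knockout and 1.74 in wild type at E10.5, against 1.05 to 1.31 on the other E10.5 arrays. Deviations of same-numbered arrays of the genotypes correlated weakly to moderately (0.034 to 0.401), and those of differently numbered arrays at -0.362 to 0.260. The labels state no pairing, so the numbers were not treated as pairs, and a replicate block was run as an alternative.

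The 9 genes and all lists were chosen with earlier results of these data known. Genes named from a list are all that passed where 5 or fewer did, otherwise the 4 with the smallest p. Of the other transferases, all that passed and the 3 brightest are named, and Gsta2, Gstm3, Gstt2 and Gstt4 were added to describe their classes after their values were seen. The genes most like Gsta3 (5) and most like each other member (1) were taken by Pearson correlation over 12 arrays. Alternatives were the replicate and batch blocks, replicates 1 and 2 only, each array left out, averaged probe sets, every probe set tested, dim genes left out, median centring, a further quantile normalisation, a trended robust prior and arrays of 1 stage. Promoters are RefSeq sequence of GRCm38.p6.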

Additional observations from a re-analysis of the deposited data

Results flagged for a closer look

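Mgst1 drew attention because its knockout arrays lay wholly above wild type at E9.0 and wholly below at E10.5. The difference of the knockout effects was -1.44 (SE 0.32), and it missed the threshold in limma's test of that difference (adjusted p = 0.113). Its knockout minus wild type differences were 0.82 at E9.0 and -0.62 at E10.5. It passed with the replicate block (adjusted p = 0.0482) and with the batch as a block (adjusted p = 0.0426). With arrays left out 1 at a time the difference lay between -1.61 and -1.19, with adjusted p from 0.109 to 0.272, and its dim second probe set gave -0.14 (adjusted p = 0.961). Other members were not singled out by this criterion. Groups of 3 arrays are too small for the test of single outlying arrays.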

How the results depend on the processing

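The number of the 9 genes called was 1 at E9.0, 1 at E10.5 and 0 for the difference between stages. The replicate block gave 2, 2 and 1, and the batch as a block gave 3, 3 and 1. Only replicates 1 and 2 gave 0, 2 and 0. At E9.0 the number was 0 with averaged probe sets and 0 over genes at or above the median level, which leaves Gsta3 out of the test. Without 1 array it ranged from 0 to 1 at E9.0, from 1 to 1 at E10.5 and from 0 to 0 for the difference. Of the values for single genes under these alternatives, 451 kept direction and side of the threshold, 9 gained a call, 6 lost it (all Gsta3 at E9.0) and 8 changed sign, all without a call before and after. For the knockout comparisons, the ranges without 1 array that cross 0 were -0.12 to 0.24 for Gstp1 at E9.0, -0.16 to 0.17 for Gsta3, -0.11 to 0.22 for Gsta4 and -0.33 to 0.07 for Mgst3 at E10.5. The values that crossed were -0.12 for Gstp1, 0.17 for Gsta3, 0.065 for Mgst3 and -0.01, -0.11, -0.0017 and -0.057 for Gsta4, and averaged probe sets gave 0.087 for Gsta3 at E10.5. The cause was not tested. Replicate numbers are not shown to pair arrays, though same-numbered deviations all correlated above 0, at 0.034 to 0.241 at E9.0 and 0.067 to 0.401 at E10.5. Differently numbered ones correlated at -0.362 to 0.260 at E9.0 and -0.354 to 0.173 at E10.5. Knockout replicate 1 at E9.0 correlated best with wild type replicate 2 (0.26). Over all genes the calls at E9.0, at E10.5 and for the difference numbered 215, 1325 and 34. They were 349, 1814 and 115 with the replicate block, 476, 2081 and 91 with the batch as a block and 69, 1610 and 43 within replicates 1 and 2. Of 232 stage differences under alternatives 227 moved by less than 1 SD, and the 5 others came from averaging probe sets. Without 1 array, the stage difference in the knockout crossed 0 for Gsta4 (-0.087 to 0.24), Gsto1 (-0.092 to 0.023) and Gstp1 (-0.33 to 0.0033). With the replicate block Cyp1b1 lost its E10.5 call (adjusted p = 0.0670). Dim probe sets such as the second ones of Gsta3, Mgst1 and Mgst3 limit what their differences can show.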
